A study of Mus musculus with 12 samples.

Results

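Salivary gland genes were followed across tumors of the floor of the mouth. The group comprised 38 genes, chosen by name, whose probes were taken wherever the platform annotation gave that name in its older or current form. Of them, 22 encode proteins of the saliva, 7 take part in fluid and ion transport, 3 in the trafficking of secreted proteins, and 6 are transcription factors. The annotation named probes for 36 genes, with 60 probes of the 45135 on the array. No probe carried the name Ren1, and the current record of Muc19 is that of Smgc, under which it was counted. After a filter on dim probes, 46 probes of 32 genes were kept, among 18454 probes of 10346 genes in all. Kept probes were above the negative control probes on at least 2 of 12 arrays, so the filter does not look at the groups. The 4 genes named by the annotation but not kept were Dcpp3 and Cftr, above the controls in primary tumor 1 alone (log2 intensity 6.25 and 6.60), and Agr2 and Crisp3, above them on 0 arrays.

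The 12 arrays measured total RNA of 5 primary tumors, of the 5 local recurrences that followed them and of 2 samples of the cultured line. All tumors were grown from SCC-7, a murine squamous cell carcinoma line, injected into the floor of the mouth of BALB/c-nu mice, which lack a thymus. Each recurrence arose after the primary tumor of the same number had been removed by microsurgery, so that every pair is from 1 animal. The SCC-7 cells came from culture and stand for the tumor cells without host tissue. No salivary gland was on the arrays. Age and sex of the mice are not given in the sources used here, and nothing says whether the SCC-7 samples were separate cultures, so their spread may be technical.

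Saliva is made by the parotid, submandibular and sublingual glands, of which the sublingual gland lies in the floor of the mouth and the submandibular gland just below it. Acinar cells make most of the fluid and protein: chloride enters through a sodium-potassium-chloride cotransporter, leaves through calcium-activated channels, and water follows through aquaporin 5, while amylase, mucins and antimicrobial proteins are released from granules. Duct cells then change the salt content and, in rodents, add growth factors and kallikreins. In mice the makeup of the secreted proteins differs between the glands, amylase and parotid secretory protein being typical of the parotid, and mucins and the submandibular gland proteins of the other glands.

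The arrays of pair 1 stood apart for these genes. Primary tumor 1 had the highest value of the 10 tumors for 30 of 32 genes, and recurrence 1 the lowest for 20. Some of these lowest ranks have no meaning, since other tumors were at the controls too. For Dcpp2, recurrence 1 read 4.36 and primary tumor 5 read 4.37, both at the controls. In primary tumor 1 and in recurrence 2 all 32 genes were above the negative controls, and in recurrence 1 only 6 were. The counts in primary tumors 2 to 5 were 21, 30, 15 and 11, and in recurrences 3 to 5 they were 31, 24 and 25. Between the recurrence and the primary tumor of pair 1, 46 of 46 member probes were at least 2-fold lower and 0 were higher, where over all kept probes 8.65% were lower and 5.07% higher. The total number of probes above the controls differed little, with 15424 in primary tumor 1 and 16050 in recurrence 1. The labels of both arrays were kept as given and could not be checked from the files, so every value of pair 1 and every mean over 5 pairs holds only under those labels. Differences between recurrent and primary tumors that leaving out pair 1 moves are therefore given with and without it.

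**Figure D1:**
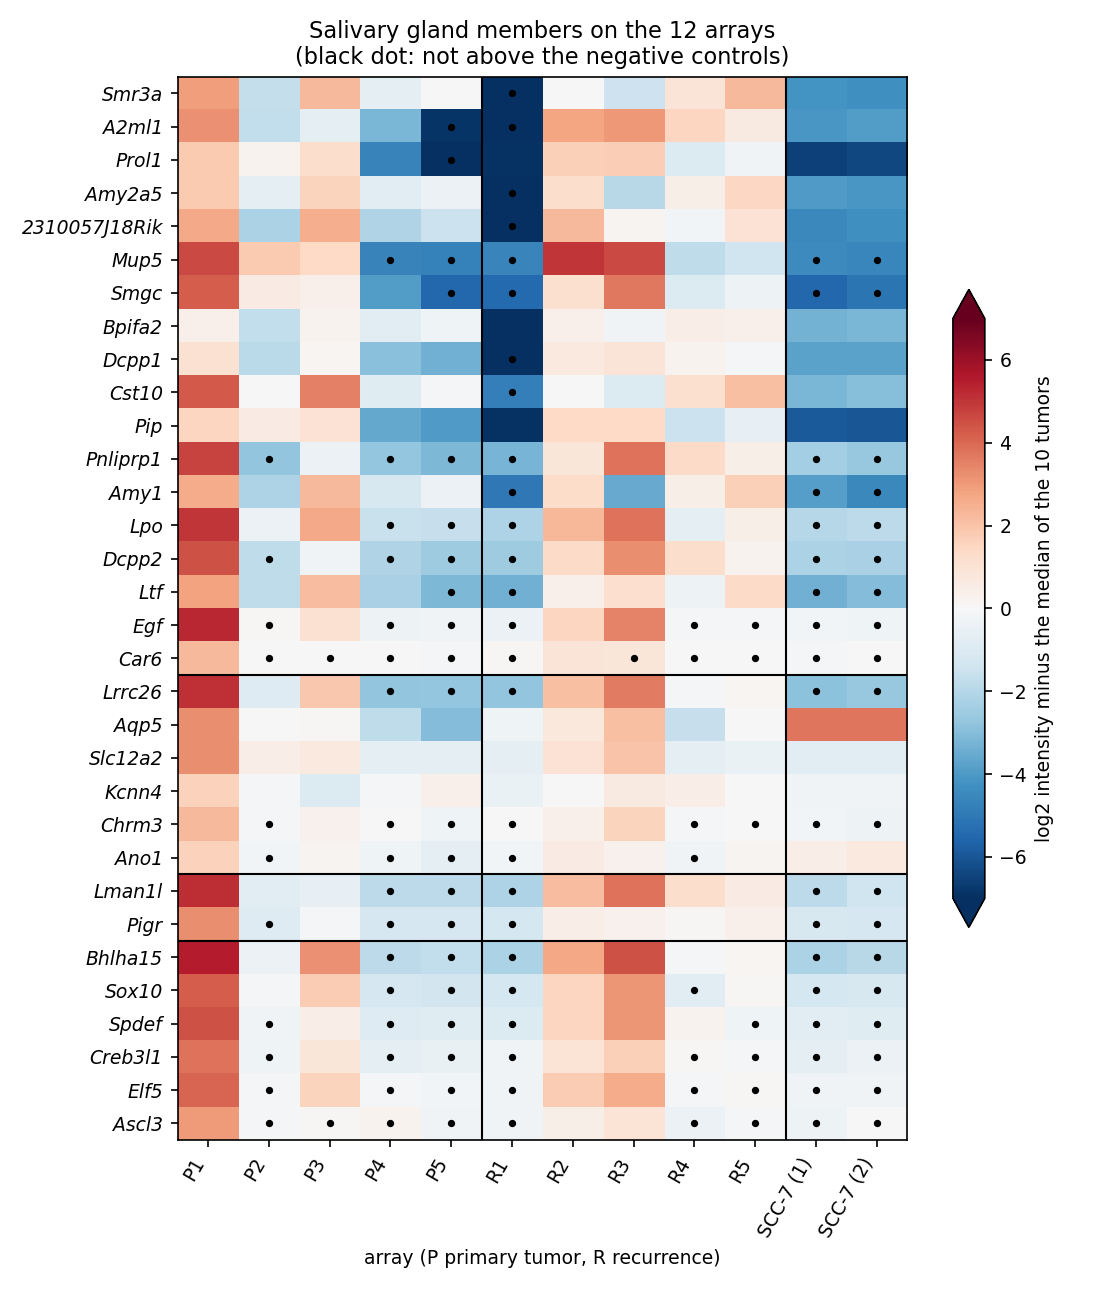
Log2 intensity of the 32 kept genes (rows, by class, the probe with the highest mean) on the 12 arrays (columns), as the difference from the median of the 10 tumors; black dots mark arrays where it did not exceed the negative controls. Primary tumor 1 is red and recurrence 1 blue or at the controls in nearly every row, and recurrences 2 and 3 are red for most genes.

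Apart from pair 1, most salivary gland genes were higher in the recurrence than in its own primary tumor. A difference of at least 2-fold upwards in at least 3 of 5 pairs was found for 30 of 46 member probes, standing for 19 of 32 genes, and downwards for 0, where all kept probes gave 0.997% and 0.341%. This count resembles the selection described for the study, which took transcripts altered in at least 3 pairs. The paper's text names no fold cutoff, so the 2-fold limit was set here. A2ml1, Smr3a, Prol1 and Dcpp1 are among the genes the study picked from these tumors, so their array values are no independent evidence. Some picked genes, A2ml1 (Ovos2 in the paper), Smr3a, Prol1 and Dcpp1 among them, were checked by RT-PCR in the paper. It reports altered levels of them by that method too. Since no member probe was 2-fold higher in recurrence 1, leaving it out could not lower this count, which was again 30, with 0.715% of all probes. When another pair was left out, so that 3 of the remaining 4 pairs were needed, 15 member probes were counted without pair 2 (0.482% of all probes), 26 without pair 3 (0.504%), 16 without pair 4 (0.618%) and 15 without pair 5 (0.455%). Since the list was proposed with such results known, these counts are descriptions. Which cells of the tumors held these transcripts was not tested. In bulk RNA, fewer cells that express a gene and less of its RNA per cell cannot be told apart.

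In pairs 2, 4 and 5 no member probe was as much as 2-fold lower in the recurrence. In pair 2, 36 of 46 member probes were at least 2-fold higher in the recurrence and 0 lower, against 3.84% and 4.56% of all probes. In pair 4, 31 were higher and 0 lower, against 1.76% and 1.59%. In pair 5, 32 were higher and 0 lower, against 3.74% and 1.24%. Pair 3 alone was mixed, with 26 higher and 9 lower, against 13.8% and 10.6%, and the 9 lower probes stood for Smr3a, Amy1, Amy2a5, Ltf, 2310057J18Rik and Cst10.

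With all 5 pairs, 0 of 46 member probes passed limma's paired test at an adjusted p under 0.05, as did 0% of all kept probes. At an unadjusted p under 0.05 there were 0 members and 601 of 18454 probes in limma, and 0 members and 423 probes by the methods' t-test. The median log2 difference of the 32 genes, recurrent minus primary, was -0.06, beside 0.03 over all probes. Without pair 1 that median was 1.33, beside 0.02, and 29 of 46 member probes had an unadjusted p under 0.05, against 3.98% of all probes. limma then called 3 probes of the whole array (0.0163%), and all 3 were members: Pnliprp1 (log2 difference 3.86 ± 0.19 SE, adjusted p = 0.016), Mup5 (3.16 ± 0.17, adjusted p = 0.016) and Dcpp2 (3.16 ± 0.19, adjusted p = 0.026), each higher in 4 of 4 recurrences. The primary tumors of pairs 2, 4 and 5 for Pnliprp1 and Dcpp2, and of pairs 4 and 5 for Mup5, were at the controls, so these differences are measured in part against a floor and have no exact size. The other kept probe of Mup5 (2.34, limma's adjusted p = 0.43) and that of Dcpp2 (2.19, adjusted p = 0.37) were not called in this fit. All 3 calls rest on leaving out the pair that ran the other way.

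Among the saliva proteins, the genes with the widest range over the tumors are given array by array, as log2 intensities in the order of pairs 1 to 5. Where a tumor of a pair was at the controls, the difference within that pair is not an exact size, and neither is a mean over such pairs. Small differences between the brightest values are no exact sizes either, since quantile normalization sets each value by its rank on the array. A2ml1 encodes a protease inhibitor of the alpha-2-macroglobulin family. It read 14.74, 9.80, 10.91, 8.36 and 4.69 in the primary tumors and 4.48, 14.32, 14.56, 13.06 and 12.16 in the recurrences. Primary tumor 5 and recurrence 1 were at the level of the negative controls, and in pairs 2 to 5 every recurrence was above its primary tumor, by 3.64 to 4.70 in pairs 2 to 4. The groups overlapped, and the mean difference of 2.01 ± 2.42 (SE, n = 5 pairs) did not pass limma's test (adjusted p = 0.94), and without pair 1 it was 5.08 (adjusted p = 0.23).

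Prol1, which the study calls Muc10, encodes a mucin of the submandibular gland. Its values were 14.95, 13.39, 14.40, 8.46 and 4.75 in the primary tumors and 6.21, 14.82, 14.87, 12.21 and 12.90 in the recurrences. Primary tumor 5 alone was at the controls, while the same animal's recurrence was clearly above them. In pair 3 both tumors were high and differed by 0.48. The difference over 5 pairs was 1.01 ± 2.15 (SE, limma's adjusted p = 0.96), and without pair 1 it was 3.45 (adjusted p = 0.91).

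The Dcpp genes encode demilune cell and parotid proteins, and lie side by side on chromosome 17. Dcpp1 read 14.70, 11.74, 13.74, 10.71 and 10.24 in the primary tumors and 5.18, 14.33, 14.52, 13.87 and 13.51 in the recurrences. The recurrences of pairs 2 to 5 lay within a narrow band, while recurrence 1 was at the controls. Its difference was 0.06 ± 1.88 over 5 pairs (SE, limma's adjusted p = 1.00) and 2.45 without pair 1 (adjusted p = 0.62). Dcpp2 read 11.29, 5.06, 6.62, 4.77 and 4.37 in the primary and 4.36, 8.20, 10.08, 8.09 and 7.07 in the recurrent tumors, and its primary tumors 2, 4 and 5 were not above the controls. Recurrences 2 to 5 all were, and exceeded their primary tumors by 2.70 to 3.47. With all 5 pairs its difference was 1.14 ± 1.57 (SE, limma's adjusted p = 0.95). Since the 3 genes are close copies, a probe of 1 of them may also take up transcripts of another, and the probes' sequences were not used here.

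How alike the copies are is seen in their promoters, shown here in RefSeq's sequence for GRCm38.p6 as 300 bases around the table's transcription start. Capitals mark TATAA, the core of the TATA box, where it starts 40 to 20 bases before the start on the gene's strand.
Dcpp1, chr17:23880626-23880925, plus strand: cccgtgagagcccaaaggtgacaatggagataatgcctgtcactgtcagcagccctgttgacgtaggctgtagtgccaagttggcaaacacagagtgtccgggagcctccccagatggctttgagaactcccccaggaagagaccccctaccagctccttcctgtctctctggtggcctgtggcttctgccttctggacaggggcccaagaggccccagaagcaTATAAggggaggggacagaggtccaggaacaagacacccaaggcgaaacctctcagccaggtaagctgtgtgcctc
Dcpp2, chr17:23898472-23898771, plus strand: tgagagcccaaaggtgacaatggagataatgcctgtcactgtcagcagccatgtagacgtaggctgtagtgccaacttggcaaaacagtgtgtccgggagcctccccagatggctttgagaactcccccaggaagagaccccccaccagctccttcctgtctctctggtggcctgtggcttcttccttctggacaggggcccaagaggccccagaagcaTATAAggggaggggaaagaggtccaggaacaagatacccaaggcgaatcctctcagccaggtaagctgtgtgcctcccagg
Dcpp3, chr17:23917208-23917507, plus strand: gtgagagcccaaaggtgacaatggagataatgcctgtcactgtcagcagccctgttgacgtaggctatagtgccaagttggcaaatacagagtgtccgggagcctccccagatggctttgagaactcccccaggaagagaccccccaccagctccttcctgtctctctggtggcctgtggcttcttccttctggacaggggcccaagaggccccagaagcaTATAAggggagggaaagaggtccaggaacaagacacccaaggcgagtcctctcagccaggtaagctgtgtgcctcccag
Of the aligned columns, 93.8% were identical between Dcpp1 and Dcpp2, 95.1% between Dcpp1 and Dcpp3 and 96.4% between Dcpp2 and Dcpp3, and TATAA begins 26, 31 and 29 bases before the 3 starts. For Dcpp1 and Dcpp3 the annotated gene begins before the start used here. In these samples Dcpp3 was above the controls on 1 array and Dcpp1 on 11.

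Pnliprp1 encodes a lipase-related protein best known from the pancreas. It read 12.38, 4.89, 7.28, 4.97 and 4.53 in the primary tumors and 4.42, 8.51, 11.49, 9.03 and 8.07 in the recurrences. Primary tumors 2, 4 and 5 were at the controls, and the recurrences of these animals were 3.55 to 4.06 higher. Mup5, a major urinary protein that carries small lipophilic molecules, read 13.88, 11.12, 10.65, 4.57 and 4.53 in the primary and 4.62, 14.25, 13.89, 7.49 and 7.88 in the recurrent tumors. Its highest value was in recurrence 2 and not in primary tumor 1, unlike 30 of the other genes. With all 5 pairs the difference was 1.497 ± 1.83 for Pnliprp1 and 0.68 ± 1.92 for Mup5 (SE, limma's adjusted p = 0.94 and 0.97). Pancreatic RNA was looked for beside Pnliprp1 and the amylase usually called pancreatic: of 12 pancreas genes on the array, 3 were kept, and Prss1, Ctrb1, Cpa1, Pnlip and Clps were not. Of the kept ones, Cela1, an elastase, was above the controls on all 12 arrays, from 6.41 in primary tumor 3 to 9.92 in recurrence 5. Rnase1, a secreted ribonuclease, read 7.83 in primary tumor 1, 7.46 in primary tumor 3 and 6.31 in recurrence 5, and was at the controls in the other tumors. Ins2, an insulin gene, was above them in primary tumors 1 and 2 and recurrence 1.

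Smgc, a submandibular gland protein, and Pip, prolactin-induced protein, ran alike over the tumors. Smgc read 14.10, 10.44, 10.21, 5.94 and 4.38 in the primary tumors and 4.44, 10.97, 13.57, 8.89 and 9.53 in the recurrences. The highest were primary tumor 1 and recurrence 3, and primary tumor 5 and recurrence 1 were at the controls. Pip read 14.69, 13.76, 14.22, 9.60 and 9.22 in the primary and 6.29, 14.61, 14.62, 11.69 and 12.65 in the recurrent tumors, with values near those of primary tumor 1 in recurrences 2 and 3. Over 5 pairs the difference was 0.46 ± 2.04 for Smgc and -0.33 ± 1.62 for Pip (SE, limma's adjusted p = 0.98 and 0.98). Without pair 1 these became 2.997 and 1.69 (adjusted p = 0.91 and 0.91).

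**Figure D2:**
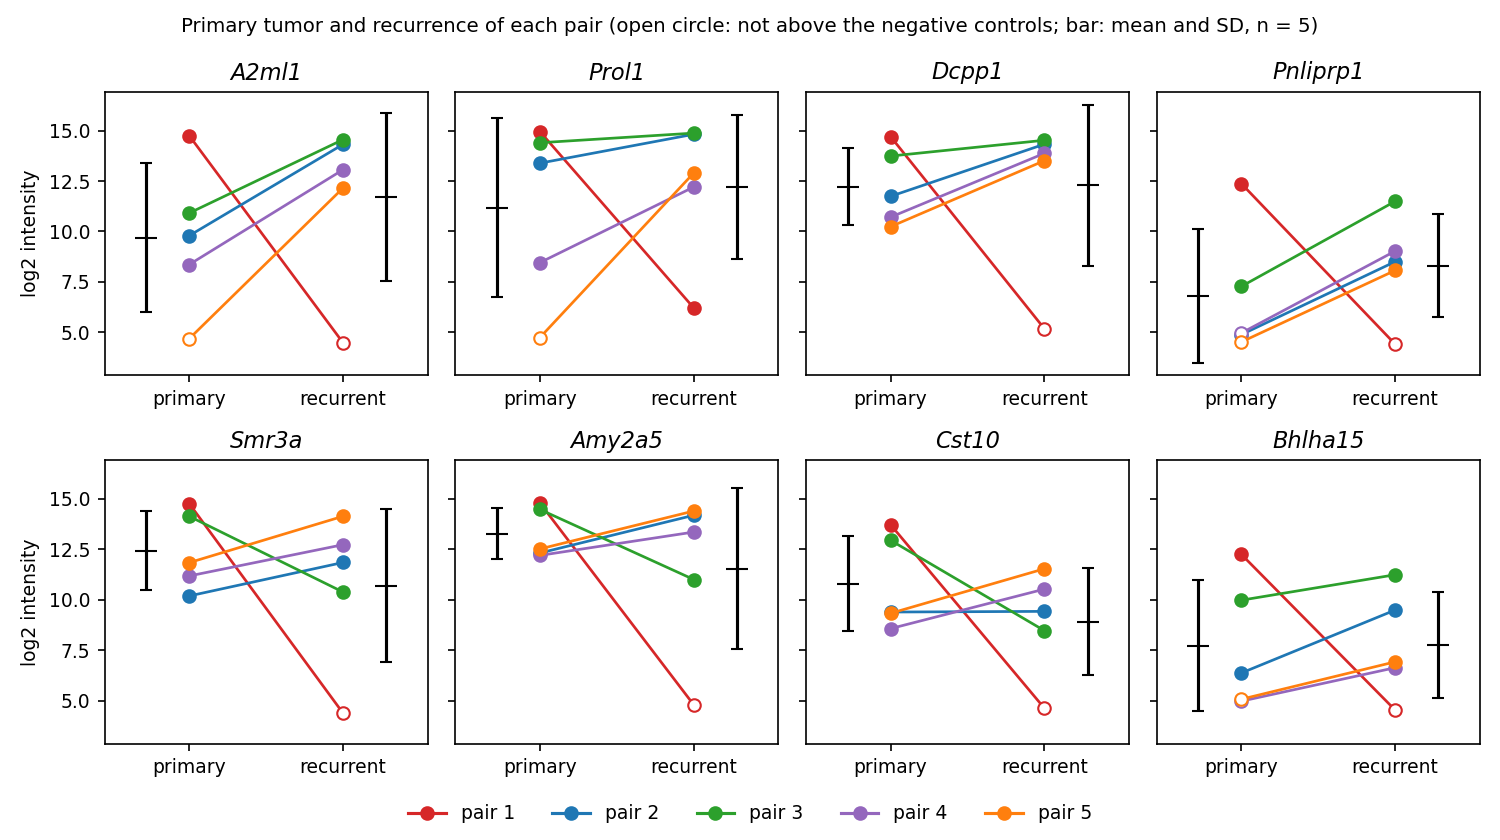
Log2 intensity in the primary tumor and recurrence of each pair (joined points, 1 colour per pair; open circles, not above the negative controls), with the mean and SD of 5 tumors as black bars, for 8 genes. The recurrence is the lower tumor of pair 1 in every panel and the higher or equal one in pairs 2, 4 and 5; in pair 3 it is higher for A2ml1, Prol1, Dcpp1, Pnliprp1 and Bhlha15 and lower for Smr3a, Amy2a5 and Cst10.

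Smr3a, the amylases and Cst10 followed another order. Smr3a encodes an androgen-regulated protein of the submandibular gland, and read 14.76, 10.19, 14.13, 11.18 and 11.84 in the primary tumors and 4.37, 11.85, 10.38, 12.73 and 14.14 in the recurrences. Primary tumor 3 and recurrence 5 were close to primary tumor 1, while recurrence 3 was -3.75 on the log2 scale against its primary tumor. Its difference over 5 pairs was -1.73 ± 1.88 (SE, limma's adjusted p = 0.93), and without pair 1 it was 0.44.

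Amy1 encodes salivary amylase and Amy2a5 a form usually called pancreatic, both of which split starch. Amy1 read 11.95, 7.22, 11.63, 8.24 and 8.95 in the primary tumors and 4.35, 10.66, 5.83, 9.79 and 11.06 in the recurrences. Amy2a5 read 14.79, 12.32, 14.47, 12.20 and 12.52 in the primary and 4.79, 14.19, 11.001, 13.35 and 14.40 in the recurrent tumors. For both, recurrence 3 was the second lowest tumor, recurrence 1 the lowest, and the highest were primary tumors 1 and 3 with recurrence 5. Their differences over 5 pairs were -1.26 ± 1.75 and -1.71 ± 1.78 (SE, limma's adjusted p = 0.95 and 0.93), and without pair 1 they were 0.33 and 0.36. Amylase genes are near copies of one another, and a further kept probe of Amy2a5 was lower and followed the used probe less closely (r = 0.68 over 10 tumors), where the used and the other probes of the 11 other genes with several kept probes had r of 0.905 or more. That probe too was at the controls in recurrence 3 (4.41) and high in primary tumor 1 (8.13) and recurrence 5 (8.08).

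Cst10, a cystatin and so a member of a family of cysteine protease inhibitors, read 13.72, 9.39, 12.94, 8.57 and 9.33 in the primary tumors and 4.62, 9.42, 8.47, 10.53 and 11.54 in the recurrences. Its difference was -1.88 ± 1.68 with all pairs (SE, limma's adjusted p = 0.93) and -0.07 without pair 1, so that the group means did not part once pair 1 was left out. The transcript 2310057J18Rik read 14.19, 9.29, 14.07, 9.43 and 10.01 in the primary and 4.31, 13.77, 11.70, 11.33 and 12.53 in the recurrent tumors, lying between both patterns with recurrence 3 in the middle of the tumors.

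The members parted in recurrence 3. From primary tumor 3 to recurrence 3, Amy1 differed by -5.80, Cst10 by -4.48, Smr3a by -3.75 and Amy2a5 by -3.47 on the log2 scale, while Lman1l differed by 4.36, Pnliprp1 by 4.22, A2ml1 by 3.64 and Smgc by 3.36. Over the 8 tumors of pairs 2 to 5, Amy1 correlated with Amy2a5 at r = 0.97, with Smr3a at 0.90 and with Cst10 at 0.80. Smgc correlated with Aqp5 at 0.96, with Pip at 0.95, with Prol1 at 0.94 and with Amy1 at -0.18. Over all 10 tumors Amy1 and Smgc gave 0.37. These are descriptions over few arrays that were normalized together. Of other salivary genes, Dnase1, a secreted nuclease, ran close to the amylases, with 13.47 in primary tumor 3 and 5.995 in recurrence 3. Chia1, a chitinase, shared with them the low recurrence 3 (10.17) but not the high primary tumor 3 (12.40), which was the fifth highest.

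**Figure D3:**
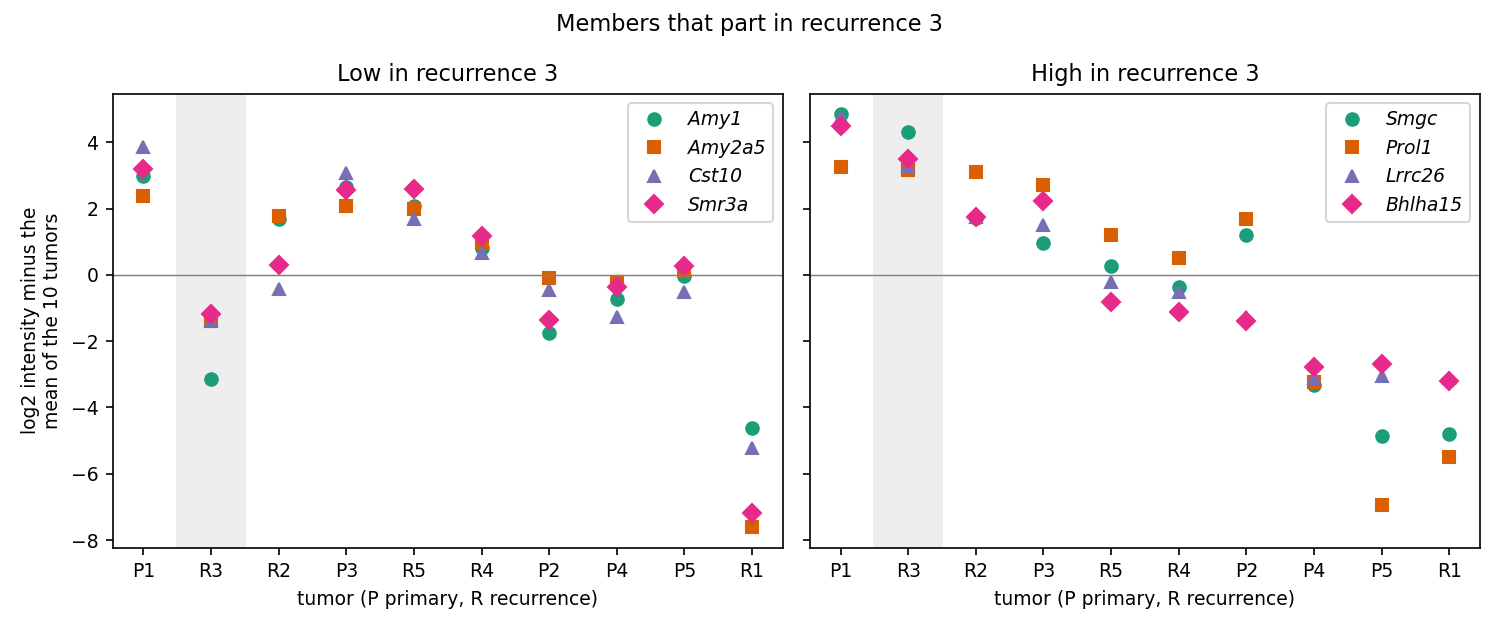
Log2 intensity minus the mean of the 10 tumors for 4 genes that were low in recurrence 3 (left) and 4 that were high there (right); tumors run in the same order in both panels, and recurrence 3 is shaded. In recurrence 3 the left genes lie below their mean and the right genes above it, while primary tumor 1 is high and recurrence 1 low in both.

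Promoters of a gene from each pattern are shown because their tumor orders differed while both hold the TATA core, again from RefSeq for GRCm38.p6.
Amy2a5, chr3:113258650-113258949, minus strand: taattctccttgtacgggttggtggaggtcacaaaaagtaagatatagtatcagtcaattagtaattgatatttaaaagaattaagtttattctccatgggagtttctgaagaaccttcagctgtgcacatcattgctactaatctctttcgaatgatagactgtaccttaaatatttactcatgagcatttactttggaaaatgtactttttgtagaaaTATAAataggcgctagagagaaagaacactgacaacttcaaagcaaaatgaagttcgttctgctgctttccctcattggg
Smgc, chr15:91838078-91838377, plus strand: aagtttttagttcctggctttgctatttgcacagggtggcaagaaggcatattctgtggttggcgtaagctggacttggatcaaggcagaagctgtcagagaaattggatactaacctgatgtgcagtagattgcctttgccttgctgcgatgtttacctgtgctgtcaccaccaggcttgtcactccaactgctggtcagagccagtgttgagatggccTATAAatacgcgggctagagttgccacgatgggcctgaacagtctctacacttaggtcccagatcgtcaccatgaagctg
They were 49.9% identical over the aligned columns, and TATAA starts 30 bases before the start in each. Of the 32 kept genes, 28 had a promoter in the table. TATAA stood 40 to 20 bases before the start in 8 of 28, or 28.6%, and in 7 of 17 saliva proteins, or 41.2%, where 3.83% of 27025 promoters had it. The 8 were A2ml1, Amy2a5, Bpifa2, Dcpp1, Dcpp2, Pip, Smgc and Spdef, and Dcpp1 and Dcpp2 count as near copies. Anywhere in the 300 bases and on either strand, TATAA was found in 39.3% of the members and 25.5% of all promoters. CAGCTG, an E-box letter sequence, was in 17.9% and 16.1%, and CATATG in 0 of 28 and 3.91%. The window was chosen after the sequences had been seen. A match is of letters only.

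Several of the other saliva proteins act against microbes. Bpifa2, parotid secretory protein, read 14.80, 12.74, 14.66, 13.66 and 14.14 in the primary tumors and 5.37, 14.80, 14.22, 14.90 and 14.80 in the recurrences. The tumors other than recurrence 1 lay between 12.74 and 14.90, and recurrence 1 was far below them. Primary tumor 1 and recurrences 2 and 5 shared the value 14.80, set by rank near the top of the scale. How far these bright tumors differed can therefore not be read from the values. Ltf, the iron-binding lactoferrin, ranged from 4.41 to 10.61 over the tumors, and Lpo, lactoperoxidase, from 4.41 to 11.58. Egf, a growth factor that rodents release from submandibular ducts, reached 9.98 in primary tumor 1 and 8.15 in recurrence 3, and was above the controls in 4 of 10 tumors. Car6, the secreted carbonic anhydrase, was above them only in primary tumor 1 (6.64) and recurrence 2 (5.26). Mean differences of these 5 genes, recurrent minus primary, ran from -1.19 to 0.26, none past limma's test (lowest adjusted p = 0.95), and without pair 1 from 0.47 to 1.88.

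Of the genes for fluid and ion transport, Aqp5, the water channel of the acinar cell membrane, read 12.76, 9.55, 9.56, 7.72 and 6.45 in the primary tumors, 9.22, 10.27, 11.63, 7.87 and 9.47 in the recurrences and 13.26 and 13.25 in SCC-7 cells. Every tumor lay below both SCC-7 arrays. Among the tumors, primary tumor 1 and recurrence 3 were the highest, as for Smgc. Slc12a2, the cotransporter that loads acinar cells with chloride, read 13.68, 10.87, 11.08, 9.72 and 9.77 in the primary and 9.72, 11.44, 12.42, 9.74 and 9.98 in the recurrent tumors, beside 9.62 and 9.62 in SCC-7. Its widest gaps above the cells were in primary tumor 1 and recurrences 3 and 2, and recurrences 1 and 4 and primary tumors 4 and 5 were close to the cells. Kcnn4, a calcium-activated potassium channel, was above the controls on every array, with 10.55, 8.84, 7.96, 8.84 and 9.30 in the primary tumors, 8.45, 8.93, 9.54, 9.38 and 8.93 in the recurrences and 8.66 and 8.68 in SCC-7. Within pairs it ran from -2.10 in pair 1 to 1.58 in pair 3, recurrence against primary tumor.

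Lrrc26, an auxiliary subunit of the BK potassium channel, was in contrast at the controls in SCC-7. It read 12.31, 6.27, 9.06, 4.44 and 4.50 in the primary tumors and 4.43, 9.29, 10.85, 7.05 and 7.34 in the recurrences. In pairs 2 to 5 the recurrences were higher by 1.79 to 3.02. Primary tumors 4 and 5 and recurrence 1 were at the controls, so the differences of pairs 4 and 5 are no exact sizes. Ano1, the calcium-activated chloride channel, read 6.96, 5.15, 5.57, 5.05 and 4.75 in the primary and 5.14, 5.92, 5.66, 5.13 and 5.57 in the recurrent tumors, beside 5.83 and 6.03 in SCC-7. Of the tumors, only primary tumors 1 and 3 and recurrences 2, 3 and 5 were above the controls for Ano1. Chrm3, the muscarinic receptor through which nerves start the flow of saliva, read 7.09, 4.70, 5.10, 4.82 and 4.51 in the primary and 4.79, 5.15, 6.34, 4.73 and 4.78 in the recurrent tumors, and was above the controls in 4 tumors. Mean differences of the 6 transport genes were -0.37 to 0.49, and 0 passed limma's test (lowest adjusted p = 0.95). Without pair 1 they were 0.44 to 2.57, Lrrc26 going from 0.48 to the latter value (adjusted p = 0.13).

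Lman1l, related to a lectin that carries glycoproteins out of the endoplasmic reticulum, read 11.81, 5.85, 6.07, 4.81 and 4.82 in the primary tumors and 4.50, 8.78, 10.43, 7.86 and 7.22 in the recurrences. The recurrences of pairs 2 to 5 were all above the controls and 2.39 to 4.36 above their primary tumors, of which those of pairs 4 and 5 were at the controls. Its difference was 1.08 ± 1.64 over 5 pairs (SE, limma's adjusted p = 0.95) and 3.18 without pair 1 (adjusted p = 0.19). Pigr, the receptor that carries immunoglobulin A into saliva, read 8.92, 4.77, 5.62, 4.54 and 4.52 in the primary and 4.45, 6.15, 5.998, 5.77 and 6.05 in the recurrent tumors. Its recurrences 2 to 5 lay close together, and only primary tumor 1 was higher, with a difference of 0.01 ± 0.89 over 5 pairs (SE, limma's adjusted p = 1.00) and 1.13 without pair 1. The sum of the plasma and B cell genes followed another course, with 29193 in primary tumor 3 and 189 to 1317 in the other tumors. Of single genes, Mzb1 and Pou2af1 were above the controls only in primary tumors 1 and 3 and recurrences 2, 3 and 5. Cd79b and Cd22 were above them in every tumor, and each of these genes was highest in primary tumor 3.

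All 6 transcription factors were highest in primary tumor 1 and next in recurrence 3, as Smgc was, and 0 of 6 were above the controls in recurrence 1 or in either SCC-7 array. Bhlha15, known as Mist1, sets up the secretory apparatus of exocrine cells. It read 12.25, 6.37, 9.98, 4.97 and 5.07 in the primary tumors and 4.54, 9.49, 11.24, 6.63 and 6.92 in the recurrences, and in pairs 2 to 5 the recurrences were higher by 1.26 to 3.12. Sox10, a factor of gland progenitors and acinar cells, read 9.96, 5.62, 7.49, 4.54 and 4.39 in the primary and 4.46, 7.21, 8.78, 4.92 and 5.77 in the recurrent tumors. Spdef, which promotes mucous cell fates, read 9.76, 5.05, 5.77, 4.39 and 4.45 in the primary and 4.34, 6.77, 8.38, 5.53 and 4.98 in the recurrent tumors. Primary tumors 4 and 5 were at the controls for all 3 of these factors.

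Elf5, an epithelial factor of secretory and ductal cells, read 8.59, 4.44, 6.08, 4.37 and 4.33 in the primary tumors and 4.27, 6.26, 7.12, 4.34 and 4.56 in the recurrences. Creb3l1, which raises the capacity for secretion, read 8.95, 4.83, 5.99, 4.43 and 4.61 in the primary and 4.87, 6.08, 6.82, 5.19 and 5.08 in the recurrent tumors. Ascl3, a marker of a duct cell type, read 7.71, 4.65, 4.83, 4.98 and 4.50 in the primary and 4.48, 5.16, 5.70, 4.31 and 4.63 in the recurrent tumors. For these the only tumors above the controls were primary tumors 1 and 3 and recurrences 2 and 3, and for Ascl3 not primary tumor 3. Differences between the groups were -0.48 to 0.12 over the 6 factors (lowest limma adjusted p = 0.94), and 0.21 to 1.97 without pair 1.

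Against the SCC-7 arrays, 0 of 46 member probes passed in either direction at an adjusted p under 0.05 and 2-fold in limma's fit of the 3 groups. Over all probes, 6.62% were called higher in primary tumors and 5.73% in the cells, and for the recurrences it was 6.84% and 5.02%. At an unadjusted p under 0.05 there were 5 of 32 genes for the primary tumors (Smr3a, Amy1, Pip, Cst10 and, lower, Aqp5) and 2 for the recurrences (Pip and, lower, Aqp5). As probes these were 7 and 2 of 46, where 34.4% and 33.4% of all probes had such a p, so the members lay below the background. The median difference of the 32 genes was 2.01 for the primary tumors and 2.61 for the recurrences, beside -0.15 and -0.11 over all probes. Without primary tumor 1 the former was 0.93, and without recurrence 1 the latter was 3.61, beside -0.13 and -0.12. The spread within the tumor groups was wide, with SDs up to 4.42 in the primary tumors (Prol1, n = 5) and 4.25 in the recurrences (Mup5, n = 5).

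Recurrence 1 decided some of these results. Without it, 5 member probes were higher in primary tumors than in SCC-7 (6.23% of all probes), namely those of Smr3a, Amy2a5, Pip, Cst10 and Bpifa2, and 6 were higher in recurrences (6.39%), those of Smr3a, Amy2a5, Pip, Bpifa2, Dcpp1 and 2310057J18Rik. Bpifa2 then differed by 2.80 ± 0.47 (SE, adjusted p = 0.0032 in limma) in the primary tumors and 3.48 ± 0.49 (adjusted p = 0.0012 in limma) in the recurrences. Since the groups share 1 estimate of spread, an array left out of the recurrences also moves the test of the primary tumors. Without primary tumor 1, Aqp5 was called lower in the primary tumors (-4.93 ± 1.02 SE, limma's adjusted p = 0.0089, with 5.28% of all probes lower) and in the recurrences (-3.56 ± 0.99 SE, adjusted p = 0.030, with 5.25% lower). With all arrays its differences were -4.04 ± 1.35 (adjusted p = 0.059) and -3.56 ± 1.35 (SE, adjusted p = 0.09).

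The SCC-7 arrays were not without saliva transcripts. On both, 9 of 18 kept saliva protein genes were above the negative controls. Over the whole array, 13711 and 13868 of 45135 probes were above them before the filter, which kept 18454, so the count of 9 is not high. Bpifa2 read 11.16 and 11.24, Dcpp1 9.88 and 9.90, Amy2a5 8.98 and 8.88, Smr3a 7.68 and 7.53 and A2ml1 7.49 and 7.65. Recurrence 1 read 5.37, 5.18, 4.79, 4.37 and 4.48 for the same genes, so a tumor was lower than the cells it was grown from. The rest were Pip (7.30 and 7.23), 2310057J18Rik (7.01 and 7.20), Prol1 (6.60 and 6.78) and Cst10 (6.22 and 6.41). Further probes of Prol1 (6.05 and 5.88) and A2ml1 (7.68 and 7.61) were above the controls in SCC-7 as well, whereas further probes of Smr3a (4.63 and 4.76) and Amy2a5 (4.54 and 4.46) were not.

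The transcription factors, Lrrc26, Lman1l and Pigr were at the controls in the cells, as were Smgc, Mup5, Lpo, Ltf and the kept probe of Egf among the saliva proteins. Another probe of Egf, not kept, was above them on 1 SCC-7 array (5.79) and on 0 others. Of 15 other salivary genes that were kept, 4 and 3 were above the controls on the SCC-7 arrays, among them Scgb2b27, a secretoglobin (9.38 and 9.39), Chia1 (8.22 and 8.38) and Dnase1 (6.22 and 6.24). The source of these signals was not tested.

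**Figure D4:**
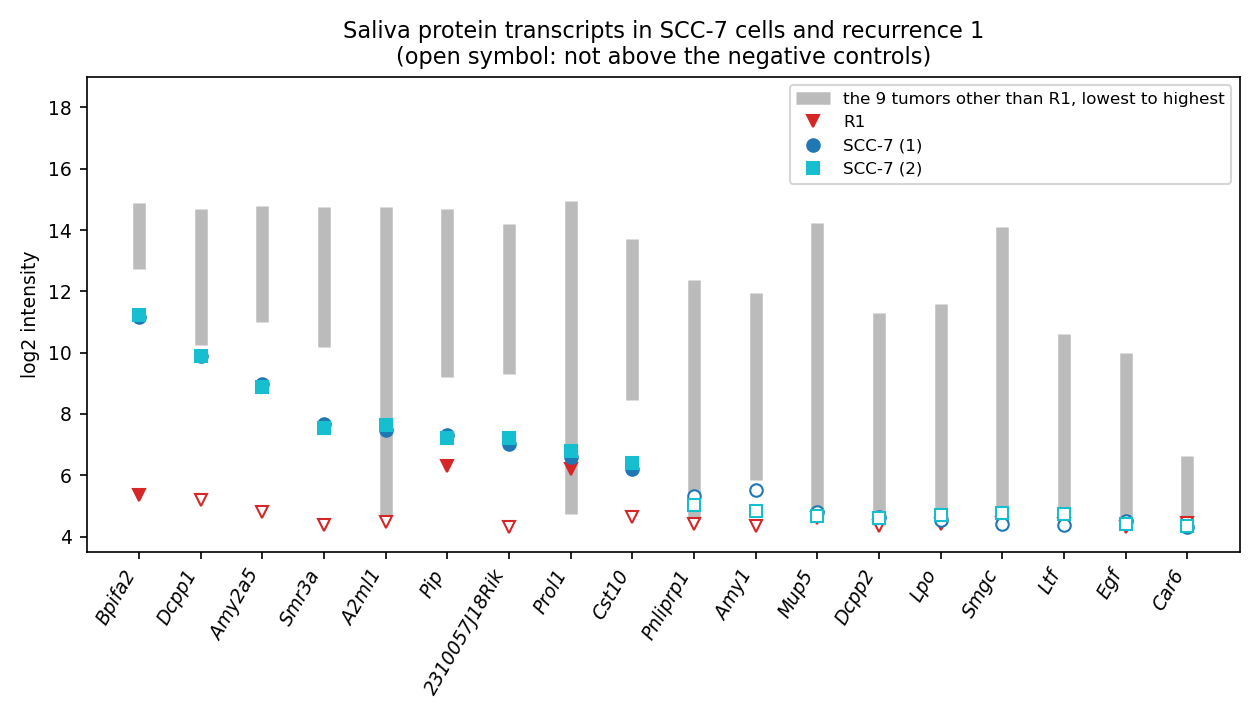
Log2 intensity of the 18 saliva protein genes (ordered by their SCC-7 mean) in both SCC-7 arrays and in recurrence 1 (open symbols, not above the negative controls), with grey bars from the lowest to the highest of the other 9 tumors. Bpifa2, Dcpp1, Amy2a5 and Smr3a read 11.20, 9.89, 8.93 and 7.60 on average in SCC-7, above recurrence 1 and below the other 9 tumors.

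For genes at the controls in SCC-7, only a bound can be given, from the mean of the tumors over the lowest signal detected in the cells. Tumors at the controls entered these means with their measured values, which are themselves uncertain. Of the primary tumors, 5 were above the controls for Amy1, 4 for Smgc and 3 each for Mup5 and Bhlha15. Of the recurrences, 4 were for each gene. The bounds are therefore approximate, except for Amy1 in primary tumors. Amy1 was at least 15.1-fold higher in primary tumors (limma's adjusted p = 0.11) and at least 6.32-fold higher in recurrences (adjusted p = 0.25). Smgc was at least 10.1-fold and at least 13.9-fold higher (adjusted p = 0.23 and 0.20), and Mup5 at least 9.66-fold and at least 15.4-fold (adjusted p = 0.33 and 0.27). Bhlha15 was at least 4.14-fold and at least 4.24-fold higher (adjusted p = 0.31 and 0.32). None of these differences passed the test.

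Further salivary genes shared the highest and the lowest tumor with the members. The summed intensity of 15 further salivary genes, of 20 listed, was 5257 to 100101 in the primary tumors, highest in primary tumor 1, and 510 to 41812 in the recurrences, lowest in recurrence 1. It was 1391 and 1402 in SCC-7, and 0 of 15 passed limma's test between recurrent and primary tumors or against the cells. Luminal epithelial genes did so only in part. All 9 kept of 13 were above the controls in primary tumor 1 and 2 in recurrence 1, and the sum was highest in primary tumor 1 (6711), but next came recurrence 5 (3718) and primary tumor 4 (2825), while primary tumors 2 and 3 (920 and 1127) and recurrence 1 (918) were the lowest. Krt8, a keratin of simple epithelia and the brightest of them, was highest in recurrence 5 (11.68), ahead of primary tumors 4, 5 and 1. Cldn3, a tight junction protein, was instead highest in primary tumor 1 (9.79) and recurrence 3 (8.43). Scnn1a and Scnn1b, subunits of the sodium channel of absorbing ducts, read 9.22 and 9.38 in primary tumor 1 and 7.04 and 7.19 in recurrence 3. Slc26a4, an anion exchanger and the third kept gene of that list, was above the controls in primary tumor 4 (5.38) and 1 SCC-7 array (5.76) only, and Foxi1 was not kept.

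Genes of other tissues moved with the members in part. Adipocyte genes, 4 kept of 8, were highest in primary tumor 1 (870) and recurrence 2 (693), with 104 to 181 in the other tumors. Primary tumor 1 and recurrence 2 also had the highest mean log2 intensity of the saliva proteins (12.99 and 11.29). Recurrence 3 and primary tumor 3 came close to recurrence 2 in that mean (11.21 and 11.07), but their adipocyte sums were only 127 and 181. Glycam1, a mucin-like glycoprotein on the mammary list, read 10.77 and 12.74 in primary tumors 1 and 3 and 8.602, 9.77 and 8.999 in recurrences 2, 3 and 5, and was at the controls on the other arrays. Of mammary genes 3 of 8 were kept, with Csn2 and Wap not kept. The sums of other lists had other orders. The 7 myoepithelial genes kept of 9 summed to 3447 to 10464 in the primary tumors, highest in primary tumor 3, and to 3485 to 5079 in the recurrences. Skeletal muscle genes, 8 kept of 11 on the array, summed to 443 to 5000 and 978 to 4670, with primary tumor 3 and recurrence 5 the highest. Of single muscle genes, Acta1 read 10.64 and 10.86 in these tumors and 4.89 and 5.31 in recurrences 1 and 3. Atp2a1 and Tnnc2 were likewise high and low there, as were the amylases, though primary tumor 1 was not their highest. Tnni2 was instead highest in recurrence 1 (10.18). The 8 mast cell genes were highest in primary tumor 2 (47778). Of oral keratinocyte genes 2 of 13 were kept. Of 16 kept genes of the general secretory pathway, 14 to 16 were above the controls on every array. The part of any of these tissues in the differences between tumors was not tested.

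Genes outside the list that most resembled it were sought by the correlation, over 10 tumors, with the mean log2 intensity of the saliva protein genes. The 12 highest were Klk1b27 (r = 0.96), Klk1b5 (0.96), Klk1 (0.95), Rab15 (0.95), Klk1b26 (0.95), Cldn10 (0.94), Ckmt1 (0.93), Cyp2f2 (0.93), Nipal2 (0.93), Esrp1 (0.92), Krt23 (0.92) and Cadps2 (0.92). Member probes had a median r of 0.80 and all kept probes one of -0.17, where the members enter the mean themselves. Without pair 1 the 12 genes gave r of 0.85 to 0.95, the member probes a median of 0.81 and all probes one of -0.13. Klk1b27, a glandular kallikrein of the ducts, read 14.90, 11.01, 11.52, 8.56 and 7.88 in the primary tumors and 5.43, 12.79, 14.53, 10.23 and 11.75 in the recurrences, with recurrence 3 near primary tumor 1.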

How the data were processed

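Total RNA was labelled and read on Illumina bead arrays (mouse WG-6 v2). For each array, the mean bead intensity of every probe was deposited by the authors with neither background correction nor scaling, as was a table of normalized intensity values whose method is not given in the sources used here; 12 columns of detection p-values were not used. The deposited intensities held 954 entries without a probe name, taken here as controls. Of these, the 943 with a median intensity of at most 100 were taken as negative controls, and 11 brighter ones were set aside. This choice rests on brightness and not on a control label. Background was estimated by limma's normexp model on the 943 negative controls (offset 16), followed by quantile normalization and log2 (limma 3.58.1, R 4.3.3). A probe was above the controls on an array when fewer than 1% of them were as bright, and probes so on at least 2 of 12 arrays were kept. A gene with several kept probes was read from the one brightest on average. Detected probes ranged from 13711 to 17083 per array, and the small number of arrays sets the precision. limma compared recurrent with primary tumors with the animal as a fixed block, the pairing coming from the study, and each group with SCC-7 in a fit of 3 groups, with Benjamini-Hochberg adjustment over 18454 probes. Deviations of the paired tumors from their group means correlated at -0.37, 0.03, 0.34, 0.36 and 0.17 across probes in pairs 1 to 5. No recurrence correlated best with the primary tumor of its own pair, so the pairing rests on the study's labels. The fits were tested on simulated data.

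All members are named, the values of every array being given for those with the widest range and for the transport, trafficking and regulatory genes; outside them are named the 12 genes most alike and up to 4 genes of each tissue list, beside genes of those lists that were not kept. Members and lists were chosen with earlier results of these data known. The alternatives tried were uncorrected background, scaling by the median, the authors' own normalized intensities, the 10 tumor arrays alone, other filters, other variance settings, no block, the methods' t-test, the mean of a gene's probes and leaving out each array or pair. Likeness and the members' medians against SCC-7 without the arrays of pair 1 were added after seeing the data. Promoters were aligned with Biopython 1.88, and figures drawn with matplotlib 3.10.9.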

Additional observations from a re-analysis of the deposited data

Results flagged for a closer look

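Each gene's 5 primary and 5 recurrent values were searched for a tumor far from the others of its group by Dixon's test, which chance alone would meet in about 1 of 20 groups. Of 64 groups, 13 held such a tumor. In recurrence 1 this was a low value for Dcpp1 (log2 intensity 5.18, the next recurrence at 13.51), A2ml1 (4.48, next 12.16), 2310057J18Rik (4.31, next 11.33), Bpifa2 (5.37, next 14.22) and Pigr (4.45, next 5.77). In primary tumor 1 it was a high value for Lman1l (11.81, next 6.07), Egf (9.98, next 5.76), Spdef (9.76, next 5.77), Pigr (8.92, next 5.62), Ascl3 (7.71, next 4.98), Chrm3 (7.09, next 5.10) and Car6 (6.64, next 4.38). The last was Chrm3 in recurrence 3 (6.34, next 5.15). These genes share the arrays, so the 13 are not independent of each other.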

How the results depend on the processing

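The counts of members called were 0 in all 3 comparisons under every change of background correction, normalization, filter, variance or table, and without the replicate block of pairs the count for recurrent against primary tumors was also 0. Leaving out pairs or arrays moved them: 0 to 3 members were called between recurrent and primary tumors (3 without pair 1), 0 to 5 between primary tumors and SCC-7 (5 without recurrence 1, 1 without primary tumor 1) and 0 to 6 between recurrences and SCC-7 (6 without recurrence 1, 1 without primary tumor 1). The count of probes at least 2-fold higher in 3 pairs was 21 with no background correction, 28 with median scaling and 23 in the authors' table, and 15 to 30 when a pair was left out, with 15 without pair 2 or pair 5. Of 70 differences of single genes under other processing, 67 kept their direction; that of Bhlha15, recurrent minus primary, turned to -0.11 with no background correction, -0.091 in the authors' table and -0.061 for the mean of its probes. Over the 5 fits that each left out a pair, the log2 difference ran from -2.73 to 0.44 for Smr3a, -0.77 to 3.45 for Prol1, -2.43 to 0.33 for Amy1, -2.61 to 0.36 for Amy2a5, -1.998 to 0.88 for Bpifa2, -0.70 to 3.00 for Smgc, -0.15 to 1.49 for Aqp5, -0.79 to 0.53 for Slc12a2 and -0.74 to 1.97 for Bhlha15, the far positive end being without pair 1 in each. The cause was not tested. Values at the negative controls have no order, so differences of dim genes are understated.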
